A study of Mus musculus with 10 samples.

Results

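The genes described here are 10 mouse genes reported elsewhere to include cryptic exons when TDP-43 is lost from mouse cells: Adnp2, Mib1, Usp15, Crem, Tecpr1, Synj2bp, Camk1g, Ift81, Spata13 and Smg5. They were taken by symbol from a table of 55487 genes, where each of the 10 symbols was found. RNA was sequenced from 10 libraries of GFP-positive cells sorted from mouse brain, each a pool of 3 to 4 animals, taken 1 month after injection of an adeno-associated virus (AAV) into the dentate gyrus. The cKO-mNLS group (n = 4) was TDP-43flox/flox::CamKIIcre/- mice given AAV-FLEX-TDP-43mNLS-GFP, a Cre-dependent vector for a TDP-43 form named mNLS together with GFP. The cKO-GFP group (n = 3) was the same genotype given AAV-FLEX-GFP. The NC-GFP group (n = 3) was CamKIIcre/- mice, with no floxed allele, given AAV-FLEX-GFP. All 3 groups therefore carried the CamKII-Cre driver, which is active mainly in excitatory forebrain neurons, and a virus. The sources used here do not give the ages of the mice.

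TDP-43, the product of Tardbp, is a nuclear RNA-binding protein that prefers UG-rich RNA and represses the use of intronic stretches that resemble exons. When it is lost, such cryptic exons can be spliced into the mature mRNA, where they often bring a frameshift or an early stop codon and expose the mRNA to nonsense-mediated decay. The sets of genes affected in mouse and in human differ. The deposited table holds totals per gene, and a gene total does not measure whether a cryptic exon was included.

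Because TDP-43 binds UG repeats, the transcripts of the 10 genes were searched for TG repeats, written as DNA on the sense strand. In the longest GENCODE M21 coding transcript of each gene (GRCm38), TGTGTG, counted with overlaps, occurred in 8 of the 10 genes and in 68% of 21901 protein-coding genes. The number of occurrences per kb of transcript was above the median of all genes, 0.476, in 6 of the 10. Unbroken alternating TG runs of at least 40 bases were found in 3 of the 10 and in 1.59% of all genes. These were Mib1 with 50 bases, Usp15 with 48 and Spata13 with 46, each in the 3′ UTR. Their transcripts, of 10231, 11525 and 7517 bases, are the 3 longest of the 10, and the share over all genes was not matched for length. The longest run of Synj2bp was 11 bases, also in its 3′ UTR, while those of the other 6 genes were 5 to 8 bases. A run in a mature transcript is a description and not a shown binding site, and the introns that hold cryptic exons were not used here. The 30 bases at the start of the run are shown for 3 of the 4 genes with a run of at least 11 bases, with capitals marking the first 20 bases of the TG run or the whole of a shorter one:
Usp15, chr10:123108619-123108648, minus strand, 3′ UTR: tttatatctcTGTGTGTGTGTGTGTGTGTG
Synj2bp, chr12:81501821-81501850, minus strand, 3′ UTR: ttgaagaaaagctgtggtgGTGTGTGTGTG
Spata13, chr14:60762492-60762521, plus strand, 3′ UTR: agcatgcgccGTGTGTGTGTGTGTGTGTGT

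Library totals lay between 17164162 and 29204279 estimated counts, and 20379 genes were tested. Tardbp averaged 237 ± 68.5 CPM (counts scaled to a common library total by the TMM method, CPM) in cKO-mNLS (SD, n = 4), against 117 ± 7.75 CPM in cKO-GFP and 131 ± 11.3 CPM in NC-GFP (SD, n = 3 each). The sources used here do not say whether viral reads count toward Tardbp. The sorted cells were not purely neuronal by their markers. The neuronal markers were 10 genes of excitatory neurons or of neurons in general. Their summed level ranged over 667 to 2079.9 CPM in cKO-mNLS, 82.8 to 175.5 CPM in cKO-GFP and 182.5 to 249 CPM in NC-GFP. Between the GFP groups the sum and the list's median went opposite ways, with a median log2 fold change of 0.87 for cKO-GFP over NC-GFP. The glutamate receptor gene Gria2, the 1 of the 10 markers called there, averaged 39.7 CPM in cKO-GFP and 155 CPM in NC-GFP. The vesicular glutamate transporter gene Slc17a7 had 46.3 to 157 CPM in cKO-mNLS, 1.09 to 6.86 CPM in cKO-GFP and 0 to 0.996 CPM in NC-GFP, so 1 defining marker of excitatory neurons was at 0 in an NC-GFP library. The summed level of 9 oligodendrocyte markers was 4711 to 14406 CPM in cKO-mNLS, 8397 to 15558 CPM in cKO-GFP and 10947 to 16409 CPM in NC-GFP. That of 7 microglial markers was 1320.4 to 3279 CPM in cKO-mNLS, 3026 to 4921 CPM in cKO-GFP and 3881 to 5055 CPM in NC-GFP. That of 10 astrocyte markers was 1930.4 to 4552 CPM in cKO-mNLS, 1187 to 1912 CPM in cKO-GFP and 4061 to 4793 CPM in NC-GFP. That of 6 oligodendrocyte precursor markers separated all 3 groups, at 118 to 158 CPM in cKO-mNLS, 165 to 202 CPM in cKO-GFP and 70.1 to 85.9 CPM in NC-GFP. Of these, Gpr17 and Tnr rose in cKO-GFP over NC-GFP, and Tnr alone averaged 94.1 CPM against 14.9 CPM. Pdgfra and Neu4 were higher there without passing. Vcan was near even (27.4 and 27.7 CPM), and Cspg4 was lower (14.9 and 22.8 CPM) without passing. Blood markers summed to 3.34 to 23.2 CPM in cKO-mNLS, 154 to 734 CPM in cKO-GFP and 33.8 to 196 CPM in NC-GFP, and Alas2, S100a8 and S100a9 were at 0 in every cKO-mNLS library.

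**Figure D1:**
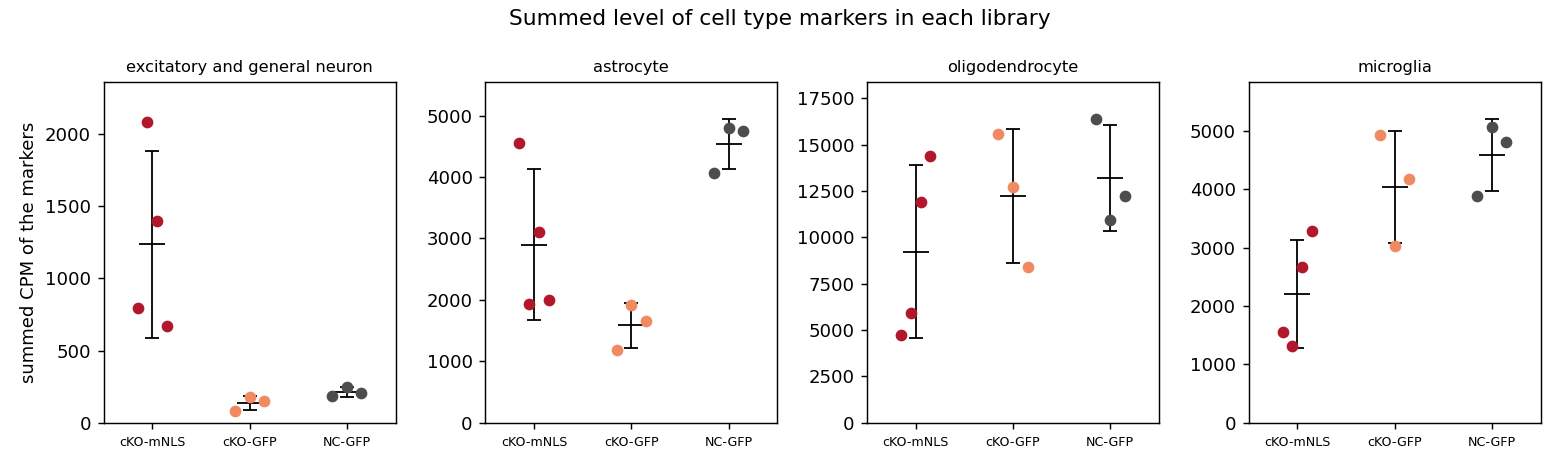
Summed CPM of cell type markers in each library, by group, with points for libraries and bars for mean ± SD (n = 4 cKO-mNLS, n = 3 cKO-GFP and NC-GFP). The neuronal sum is 667 CPM or more in every cKO-mNLS library and at most 249 CPM in the other 6, while the microglial sums of cKO-mNLS reach 3279 CPM, above the lowest cKO-GFP library.

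Set against cKO-GFP, cKO-mNLS cells had more Camk1g and Ift81 RNA and less Spata13 and Smg5 RNA. Camk1g had 180 counts in 4 libraries against 1 count in 3, Ift81 was near 2-fold higher (log2 fold change 1.00), Spata13 was lower by 0.86 on the log2 scale and Smg5 by 0.40. The other 6 genes did not pass the test, with log2 fold changes from -0.17 to 0.10 and edgeR adjusted p from 0.446 to 0.989. Thus 4 of the 10 genes were called, 2 in each direction, where 16.1% of all tested genes were called, 8.93% higher and 7.13% lower. The median log2 fold change of the 10 genes was 0.038, beside -0.014 over all genes. All 10 genes passed the low-count filter, but Camk1g did so only through the cKO-mNLS libraries and therefore had to differ, so the counts of called genes carry no test of the list and the p-values of Camk1g are given as a description.

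Against NC-GFP, cKO-mNLS had more Camk1g RNA and less Spata13 RNA. The remaining 8 genes did not pass, with adjusted p from 0.0821 for Smg5 to 0.786 for Usp15. The 2 called genes, 1 in each direction, compare with 11.5% of all tested genes, 8.23% higher and 3.25% lower, and the median log2 fold change was 0.086, beside -0.022 over all genes. Both comparisons use the same cKO-mNLS libraries, so their values are not independent of each other.

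Between cKO-GFP and NC-GFP, the comparison of the floxed and unfloxed genotypes under the same vector, 0 of the 10 genes were called by edgeR, and 1.63% of all tested genes were, 0.530% higher and 1.10% lower. DESeq2 and limma-voom also called 0. At an unadjusted p under 0.05 there was 1 gene by edgeR (Crem), 0 by DESeq2 and 1 by voom. The median log2 fold change of the 10 genes was 0.031, beside 0.040 over all genes. Apart from Camk1g, whose counts were too few to place it, the largest differences were those of Crem, at 0.68, and Ift81, at -0.39. Tardbp itself did not pass here (log2 fold change -0.16, SE 0.205, edgeR adjusted p = 0.745), and its libraries overlapped. A lower Tardbp RNA level in the cKO-GFP pools was thus not shown. This comparison shares cKO-GFP with the first comparison and NC-GFP with the second. Calls among all genes depended on single libraries, ranging from 61 to 755 genes with 1 library left out against 333 with all 10.

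**Figure D2:**
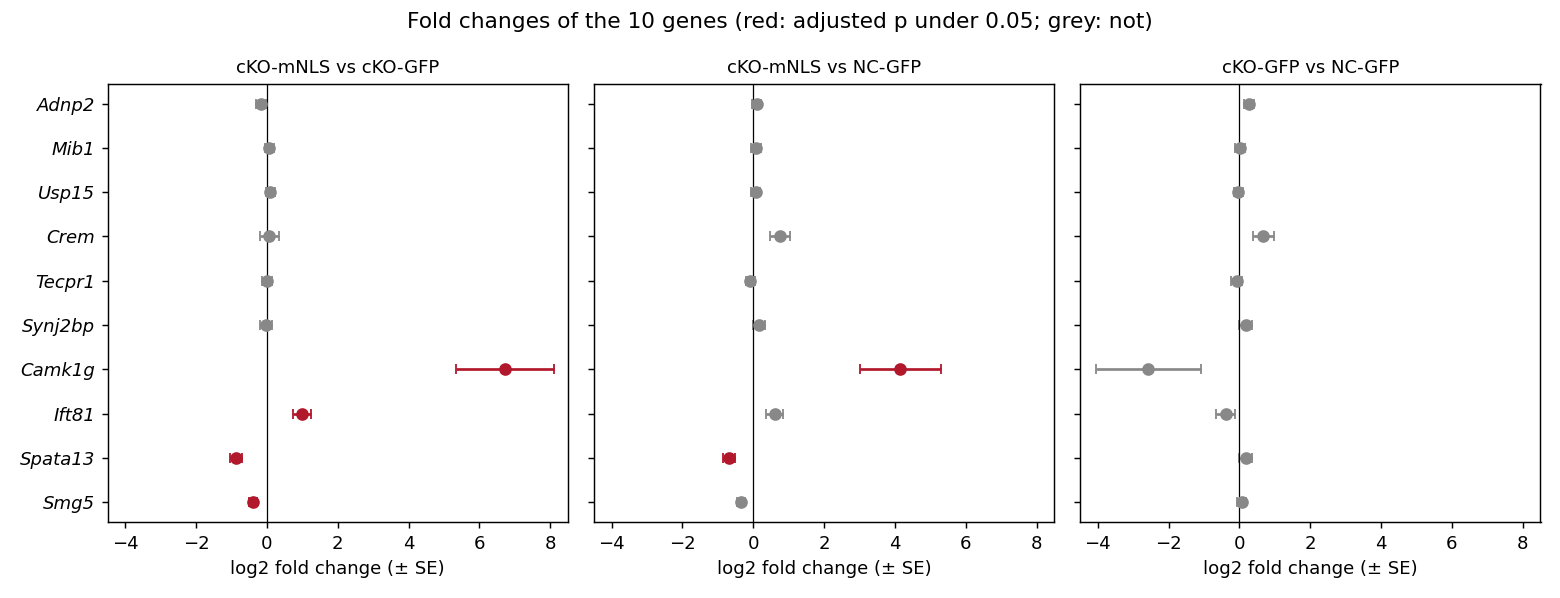
Log2 fold changes (± SE) of the 10 genes in the 3 comparisons from edgeR, with red for adjusted p under 0.05. Camk1g lies far to the right in both comparisons of cKO-mNLS, Spata13 to the left in both, and no gene is red for cKO-GFP against NC-GFP.

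**Figure D3:**
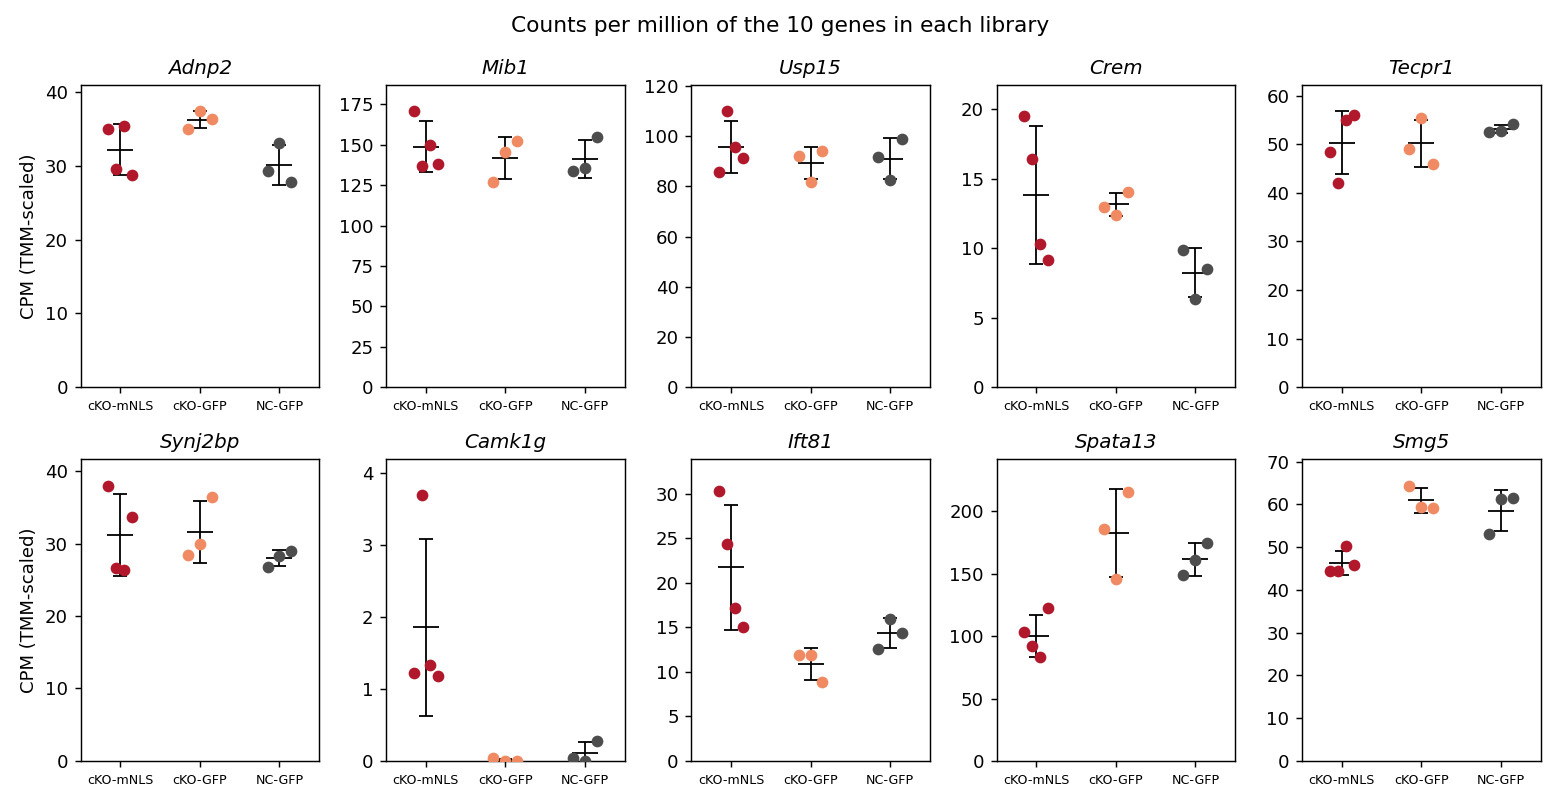
CPM of the 10 genes in each library, by group, with points for libraries and bars for mean ± SD (n = 4 cKO-mNLS, n = 3 cKO-GFP and NC-GFP). The 4 cKO-mNLS libraries lie apart from both other groups for Camk1g, Spata13 and Smg5, and the 3 cKO-GFP libraries lie above NC-GFP for Adnp2 and Crem.

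Among the genes of RNA decay and transcription, Smg5 (ENSMUSG00000001415.10; GRCm38/mm10 chromosome 3, 88336260 to 88362338, plus strand) encodes a factor of nonsense-mediated decay that acts on UPF1-bound mRNA. It had 44.4, 44.3, 50.3 and 45.7 CPM in the cKO-mNLS libraries, 64.4, 59.4 and 59.2 CPM in cKO-GFP and 53.1, 61.2 and 61.4 CPM in NC-GFP. Every cKO-mNLS library was below every library of the other groups. Groups failed to overlap for 25.7% of all tested genes between cKO-mNLS and cKO-GFP and for 24.7% between cKO-mNLS and NC-GFP. Smg5 fell by 0.40 on the log2 scale against cKO-GFP (SE 0.115, edgeR adjusted p = 0.0359). Against NC-GFP the log2 fold change was -0.34 (SE 0.116, adjusted p = 0.0821), and cKO-GFP against NC-GFP gave 0.059 (SE 0.124, adjusted p = 0.861). The call against cKO-GFP was the least stable of the 4. It passed in 1 of 10 fits with a library left out, whose adjusted p ranged from 0.0421 to 0.236, and the cKO-mNLS against cKO-GFP difference in TPM, as log2(TPM + 0.5), was -0.035 (limma adjusted p = 0.963), where the median of all genes was 0.15, so that Smg5 lay at -0.18 relative to it.

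Crem (ENSMUSG00000063889.16; GRCm38/mm10 chromosome 18, 3266048 to 3337748, minus strand) encodes a cAMP-responsive transcription factor whose isoforms include activators and repressors. Its levels were 19.5, 16.4, 10.3 and 9.15 CPM in cKO-mNLS, 13.0, 12.4 and 14.1 CPM in cKO-GFP and 9.86, 6.36 and 8.47 CPM in NC-GFP. All cKO-GFP libraries were above all NC-GFP libraries, as for 25.0% of all tested genes in either direction, while cKO-mNLS spread across both. The log2 fold change of cKO-GFP over NC-GFP was 0.68 (SE 0.300, unadjusted p = 0.0442, edgeR adjusted p = 0.281) and did not pass. For cKO-mNLS over NC-GFP it was 0.75 (SE 0.284, adjusted p = 0.120) and for cKO-mNLS over cKO-GFP 0.072 (SE 0.278, adjusted p = 0.897). Without cKO-mNLS replicate 4, Crem passed against NC-GFP (0.95, adjusted p = 0.0457).

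Adnp2 (ENSMUSG00000053950.10; GRCm38/mm10 chromosome 18, 80126311 to 80151482, minus strand), a homeobox and zinc finger gene related to Adnp, had 35.0, 29.6, 35.5 and 28.8 CPM in cKO-mNLS, 35.1, 37.4 and 36.4 CPM in cKO-GFP and 29.4, 33.1 and 27.8 CPM in NC-GFP. The cKO-GFP libraries were all above NC-GFP, and cKO-mNLS overlapped both. No difference passed: cKO-mNLS over cKO-GFP gave a log2 fold change of -0.17 (SE 0.137, adjusted p = 0.446), cKO-mNLS over NC-GFP 0.097 (SE 0.138, adjusted p = 0.728) and cKO-GFP over NC-GFP 0.27 (SE 0.147, adjusted p = 0.386).

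The 2 genes of ubiquitin signalling were among the most even. Mib1 (ENSMUSG00000024294.14; GRCm38/mm10 chromosome 18, 10725548 to 10818704, plus strand), an E3 ubiquitin ligase that acts on Notch ligands, had 171, 137, 149.7 and 138 CPM in cKO-mNLS, 127, 145.5 and 152 CPM in cKO-GFP and 134, 135 and 155 CPM in NC-GFP. Usp15 (ENSMUSG00000020124.10; GRCm38/mm10 chromosome 10, 123105006 to 123196995, minus strand), a deubiquitinase, had 85.9, 110.1, 95.7 and 91.3 CPM in cKO-mNLS, 92.0, 81.9 and 94.1 CPM in cKO-GFP and 91.6, 82.6 and 98.8 CPM in NC-GFP. Both genes overlapped between all groups. Their log2 fold changes in the 3 comparisons lay between -0.027 and 0.10 with SE of 0.127 to 0.140, and the lowest edgeR adjusted p was 0.652.

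Among genes of organelles, Tecpr1 (ENSMUSG00000066621.12; GRCm38/mm10 chromosome 5, 144194442 to 144223615, minus strand) encodes a tether between autophagosomes and lysosomes, and Synj2bp (ENSMUSG00000090935.10; GRCm38/mm10 chromosome 12, 81497941 to 81532911, minus strand) a PDZ protein of the mitochondrial outer membrane. Tecpr1 averaged 50.3 ± 6.54 CPM in cKO-mNLS, 50.2 ± 4.79 CPM in cKO-GFP and 53.1 ± 0.902 CPM in NC-GFP (SD, n = 4, 3 and 3). Synj2bp averaged 31.2 ± 5.64 CPM in cKO-mNLS, 31.6 ± 4.27 CPM in cKO-GFP and 28.0 ± 1.10 CPM in NC-GFP (SD, n = 4, 3 and 3). Both overlapped between all groups. The log2 fold changes were between -0.083 and 0.17, and the lowest edgeR adjusted p of the 2 genes was 0.634.

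Ift81 (ENSMUSG00000029469.14; GRCm38/mm10 chromosome 5, 122550204 to 122614518, minus strand) encodes a subunit of the intraflagellar transport B complex that, with Ift74, carries tubulin into cilia. Its levels were 30.4, 24.4, 17.2 and 15.0 CPM in cKO-mNLS, 11.9, 11.9 and 8.86 CPM in cKO-GFP and 12.6, 16.0 and 14.3 CPM in NC-GFP. Every cKO-mNLS library was above every cKO-GFP library, and the lowest cKO-mNLS library fell within the NC-GFP range. Ift81 rose against cKO-GFP by a log2 fold change of 1.00 (SE 0.255, edgeR adjusted p = 0.0218). Against NC-GFP the value was 0.60 (SE 0.251, adjusted p = 0.157), and cKO-GFP against NC-GFP gave -0.39 (SE 0.267, adjusted p = 0.498), with the cKO-GFP libraries all below NC-GFP. The call was lost without cKO-GFP replicate 1 (1.13, adjusted p = 0.0531), without cKO-GFP replicate 3 (0.92, adjusted p = 0.1000) and in a fit of the 2 groups alone (1.00, adjusted p = 0.0501).

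Camk1g (ENSMUSG00000016179.11; GRCm38/mm10 chromosome 1, 193346346 to 193370298, minus strand) encodes a calcium/calmodulin-dependent protein kinase of the CaMKI family and was the least abundant of the 10. It had 35, 79, 33 and 33 counts in the cKO-mNLS libraries (1.22, 3.70, 1.33 and 1.18 CPM), against 1, 0 and 0 counts in cKO-GFP and 1, 0 and 5 counts in NC-GFP. All cKO-mNLS libraries were above all others, and the 6 GFP libraries held 7 counts in all, with 3 of them at 0. The ratio of CPM was 138 for cKO-mNLS over cKO-GFP (95% interval 24.4 to 5479) and 19.7 for cKO-mNLS over NC-GFP (8.90 to 54.5). For cKO-GFP over NC-GFP it was 0.143 (0.00311 to 1.18). These exact intervals cover counting error only.

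The edgeR log2 fold change of Camk1g was 6.73 over cKO-GFP (SE 1.38, adjusted p = 0.00836) and 4.16 over NC-GFP (SE 1.14, adjusted p = 0.0361), and its size depends on how counts near 0 are treated. Neither p supports a difference beyond the counts themselves, because the gene passed the filter only through cKO-mNLS. Against NC-GFP the gene no longer passed when NC-GFP replicate 1 (3.80, adjusted p = 0.130), NC-GFP replicate 2 (3.56, adjusted p = 0.106) or cKO-mNLS replicate 2 (3.57, adjusted p = 0.105) was left out. That cKO-mNLS library had both the most Camk1g and the highest neuronal marker sum, 2079.9 CPM. Across cKO-mNLS replicates 1, 3 and 4, Camk1g was near even (1.22, 1.33 and 1.18 CPM) over neuronal sums of 791, 1398 and 667 CPM. Ift81 was highest in replicate 1, at 30.4 CPM. Of the 10 neuronal markers 9 were called higher in cKO-mNLS against cKO-GFP, beside 8.93% of all tested genes. Against NC-GFP 8 were called higher, beside 8.23%. The part of neuronal content in the Camk1g and Ift81 differences was not tested. In sorted pools, fewer cells of a type and less RNA per cell cannot be told apart.

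Spata13 (ENSMUSG00000021990.16; GRCm38/mm10 chromosome 14, 60634001 to 60764556, plus strand) encodes a guanine nucleotide exchange factor, also called Asef2. It had 103, 92.2, 83.5 and 123 CPM in cKO-mNLS, 186, 145.5 and 216 CPM in cKO-GFP and 149, 161 and 175 CPM in NC-GFP. Every cKO-mNLS library was below every library of the other groups. Spata13 fell by 0.86 on the log2 scale against cKO-GFP (SE 0.168, edgeR adjusted p = 0.0067) and by 0.69 against NC-GFP (SE 0.168, adjusted p = 0.0213), and cKO-GFP over NC-GFP gave 0.18 (SE 0.180, adjusted p = 0.677). Against cKO-GFP the call held with each library left out in turn. Against NC-GFP it ended on leaving out NC-GFP replicate 2 (-0.67, adjusted p = 0.0755), NC-GFP replicate 3 (-0.63, adjusted p = 0.100) or cKO-mNLS replicate 3 (-0.61, adjusted p = 0.0528).

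The fall of Spata13 in counts did not pass in the authors' TPM values, which divide by an estimated transcript length. On that scale it averaged 17.4 ± 7.72 TPM in cKO-mNLS (SD, n = 4), 16.5 ± 1.22 TPM in cKO-GFP and 18.3 ± 5.53 TPM in NC-GFP (SD, n = 3 each). The difference in log2(TPM + 0.5) was -0.038 against cKO-GFP (limma adjusted p = 0.968) and -0.14 against NC-GFP (limma adjusted p = 0.898), so neither call held. The median over all genes on this scale was 0.15 and 0.043 in these comparisons, and relative to it Spata13 lay at -0.19 against cKO-GFP and at -0.18 against NC-GFP. Of the 7 microglial markers, 4 were called lower by edgeR in cKO-mNLS against cKO-GFP, beside 7.13% of all tested genes. Against NC-GFP 5 were called lower, beside 3.25%. The part of microglial content in the Spata13 and Smg5 differences was not tested.

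Because counts and TPM parted for Spata13, the average transcript length behind each pair of values was computed as count divided by TPM, rescaled within each library on 1106 protein-coding genes with a single listed transcript. It was obtained for 9 of the 10 genes, Camk1g having too few counts, and for 15199 genes in all. The implied length of Spata13 was 2580, 4371, 3364 and 3090 bases in cKO-mNLS, 5257, 4106 and 5473 bases in cKO-GFP and 4315, 5039 and 4183 bases in NC-GFP. Most cKO-mNLS libraries were thus low, but replicate 2 lay within the other groups. The log2 ratio was -0.58 against cKO-GFP (SE 0.184, unadjusted p = 0.0148, limma adjusted p = 0.585) and -0.45 against NC-GFP (SE 0.184, adjusted p = 0.702), so the length difference did not pass.

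Usp15 was the 1 gene of the 9 whose cKO-mNLS libraries stood apart in length from both other groups, and it is singled out after its values were seen. Its implied length was 2560, 2616, 2591 and 2563 bases in cKO-mNLS, 2202, 2359 and 2177 bases in cKO-GFP and 2272, 2238 and 2425 bases in NC-GFP. All 4 cKO-mNLS libraries were above all 6 others, as for 0.809% of the 15199 genes, while cKO-GFP and NC-GFP overlapped. In either direction, lengths did not overlap for 12.7% of genes between cKO-mNLS and cKO-GFP, for 8.11% between cKO-mNLS and NC-GFP and for 16.4% between cKO-GFP and NC-GFP. Every Usp15 value was far below the 11525 bases of the longest listed transcript, which holds the TG run shown above. The log2 ratio was 0.20 against cKO-GFP (SE 0.0368, unadjusted p = 6.52e-04, limma adjusted p = 0.401) and 0.16 against NC-GFP (SE 0.0368, adjusted p = 0.422), and neither passed. Adnp2 has a single listed transcript, of 5012 bases, so its 5157 to 5188 bases in the 10 libraries are flat by construction. Genes with 1 listed transcript lay a median of 8.77% from their listed length. For implied length 0 genes were called by limma in each comparison among all genes. At an unadjusted p under 0.05 there were 1290 genes (8.49%) for cKO-mNLS against cKO-GFP, 1061 (6.98%) for cKO-mNLS against NC-GFP and 839 (5.52%) for cKO-GFP against NC-GFP, among them 2, 2 and 0 of the 9. No second tool was run on lengths. A length of this kind reflects how reads were divided among listed transcripts and does not count cryptic exons.

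**Figure D4:**
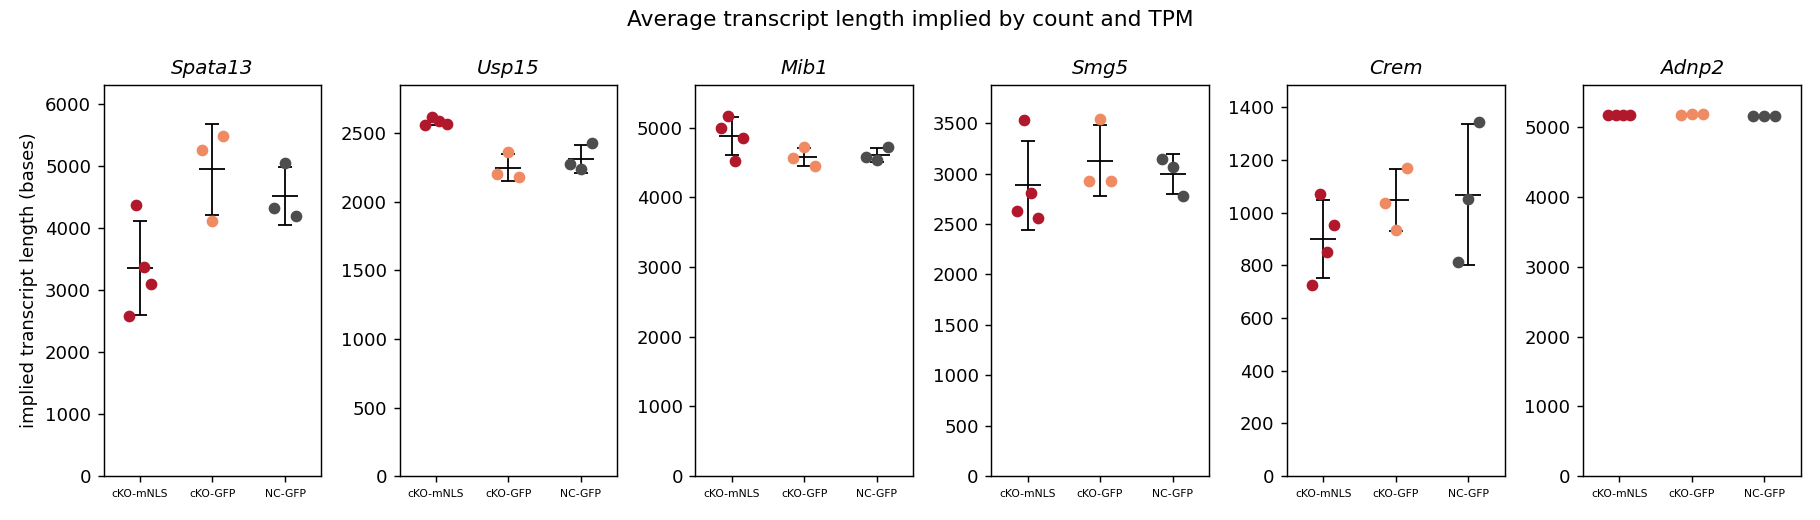
Average transcript length in bases implied by count and TPM for 6 of the 9 genes with a value in each library, with points for libraries and bars for mean ± SD (n = 4 cKO-mNLS, n = 3 cKO-GFP and NC-GFP). The Usp15 points of cKO-mNLS lie at 2560 to 2616 bases, above the highest other library at 2425, and Adnp2, which has 1 listed transcript, is flat by construction.

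RefSeq promoter windows (GRCm38.p6, 250 bases before to 50 after a gene start) were used for 6 of the 10 genes, with 7 windows in all. The cAMP response element TGACGTCA, to which the Crem protein binds, was searched on both strands. It occurred in 0 of the 7 windows and in 1.79% of 32851 windows. Its core TGACG, which lies within the full element, occurred in 1 of the 7, that of Tecpr1, and in 20.8% of all. The absence of these letters concerns these windows only. GC content was 44.7% in the Camk1g window, 60.7% in that of Smg5, and 66.0% and 49.0% in the 2 windows of Spata13, beside a median of 52.7%. Camk1g and Spata13 were called in both comparisons of cKO-mNLS, but Camk1g passed the filter only through cKO-mNLS, so its calls are a description. The windows of these 2 genes are shown, in lower case throughout because neither motif is in them:
Camk1g, chr1:193370233-193370532, minus strand: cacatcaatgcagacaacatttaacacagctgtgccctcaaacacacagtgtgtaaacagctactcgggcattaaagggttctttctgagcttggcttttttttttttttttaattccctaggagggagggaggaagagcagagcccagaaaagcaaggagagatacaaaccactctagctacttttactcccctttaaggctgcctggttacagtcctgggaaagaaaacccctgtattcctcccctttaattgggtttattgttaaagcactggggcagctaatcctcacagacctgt
Spata13, first window, chr14:60634455-60634754, plus strand: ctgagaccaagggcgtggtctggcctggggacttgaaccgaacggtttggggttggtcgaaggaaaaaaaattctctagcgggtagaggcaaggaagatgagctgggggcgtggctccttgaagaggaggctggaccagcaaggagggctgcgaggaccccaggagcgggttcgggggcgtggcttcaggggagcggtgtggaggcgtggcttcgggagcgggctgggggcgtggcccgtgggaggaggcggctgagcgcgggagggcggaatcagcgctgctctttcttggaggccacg
Spata13, second window, chr14:60732654-60732953, plus strand: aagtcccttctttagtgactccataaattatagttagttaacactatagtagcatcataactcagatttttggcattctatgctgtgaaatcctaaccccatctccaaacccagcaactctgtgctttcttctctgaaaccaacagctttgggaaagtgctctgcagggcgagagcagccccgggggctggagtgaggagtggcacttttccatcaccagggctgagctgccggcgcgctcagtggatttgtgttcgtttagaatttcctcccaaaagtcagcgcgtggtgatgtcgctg

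Most of the 10 genes span more of the genome and have more listed transcripts than the median gene. Their genomic span had a median of 49.6 kb (24.0 to 131 kb), beside 24.9 kb over 15206 tested protein-coding genes, and 9 of the 10 were above that value. The median number of listed transcripts was 9, beside 5, from 1 for Adnp2 to 39 for Crem, and 7 of the 10 were above the median of all genes. In listed length 7 of the 10 were also above the median of all genes, 3427 bases, but not the same 7. Crem and Ift81 were above it only in transcripts, and Adnp2 and Synj2bp only in length. Per length, in NC-GFP, Usp15 was highest at 19.9 ± 5.28 TPM, followed by Spata13 at 18.3 ± 5.53 TPM and Mib1 at 15.4 ± 3.57 TPM (SD, n = 3 each). Smg5 followed at 9.81 ± 2.18 TPM, Tecpr1 at 8.21 ± 1.33 TPM and Ift81 at 6.28 ± 1.55 TPM (SD, n = 3 each). Synj2bp had 4.97 ± 0.773 TPM, Crem 4.29 ± 2.58 TPM, Adnp2 2.90 ± 0.477 TPM and Camk1g 0.0837 ± 0.111 TPM (SD, n = 3 each). Neighbours in this order had overlapping mean ± SD ranges, except Adnp2 and Camk1g.

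The genes that work with 9 of the 10, all but Spata13, were described from lists by role, without the 10 themselves, and only members that passed edgeR are said to have changed, by amounts given as log2 fold changes. For comparison, 8.93% of all tested genes rose and 7.13% fell in cKO-mNLS against cKO-GFP, 8.23% rose and 3.25% fell against NC-GFP, and 0.530% rose and 1.10% fell in cKO-GFP against NC-GFP. For the calcium/calmodulin-dependent kinase list around Camk1g, 8 of 14 genes rose and 0 fell in cKO-mNLS against cKO-GFP, beside 8.93% and 7.13% of all genes, with a median log2 fold change of 0.80. Camk2a, a kinase abundant at excitatory synapses and also 1 of the neuronal markers, averaged 178 CPM in cKO-mNLS and 12.4 CPM in cKO-GFP (log2 fold change 3.85, adjusted p = 0.00187). Camk2g averaged 72.5 CPM in cKO-mNLS and 38.6 CPM in cKO-GFP (0.91, adjusted p = 0.00302). Against NC-GFP 9 of the 14 rose, including Camk2b (4.50, adjusted p = 6.09e-04). Between cKO-GFP and NC-GFP 1 gene of the list changed, as Camk2g fell by 1.24 (adjusted p = 0.00563), to 38.6 CPM in cKO-GFP against 91.1 CPM in NC-GFP. The neuronal marker sums given above were also highest in cKO-mNLS, and their part was not tested. In cKO-GFP over NC-GFP the median log2 fold change was 0.26 for this list and 0.87 for the neuronal markers, whose sum was lower.

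In the intraflagellar transport list around Ift81, 4 of 21 genes rose and 0 fell in cKO-mNLS against cKO-GFP (median 0.40), beside 8.93% and 7.13% of all genes. Against NC-GFP 5 of 21 rose (median 0.32), beside 8.23%. Wdr35, a subunit of the A complex, averaged 36.9 CPM in cKO-mNLS, 15.6 CPM in cKO-GFP and 16.7 CPM in NC-GFP, with log2 fold changes of 1.24 over cKO-GFP (adjusted p = 0.0116) and 1.14 over NC-GFP (adjusted p = 0.0193). Ttc26, a subunit of the B complex, rose over cKO-GFP by 1.54 (adjusted p = 0.0229) and Ift122, of the A complex, rose over NC-GFP by 0.80 (adjusted p = 0.0255). Ift74, the tubulin-binding partner of Ift81 and named here after its values were seen, rose by 0.73 (adjusted p = 0.0258) over cKO-GFP and by 0.74 (adjusted p = 0.0294) over NC-GFP. Between cKO-GFP and NC-GFP 0 of 21 passed by edgeR. The neuronal marker sums averaged 1234 CPM in cKO-mNLS, 136 CPM in cKO-GFP and 212 CPM in NC-GFP, and their part was not tested. In cKO-GFP over NC-GFP the median log2 fold change was -0.025 for the intraflagellar transport list and 0.87 for the neuronal markers.

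In the nonsense-mediated decay list around Smg5, 1 of 16 genes fell and 0 rose in cKO-mNLS against cKO-GFP (median -0.17), near the 7.13% of all genes that fell, and 0 passed against NC-GFP (median -0.021) or in cKO-GFP against NC-GFP (median 0.12). The gene that fell was Pnrc2, which links decay to decapping (-0.47, adjusted p = 0.0301). In the CREB and protein kinase A list around Crem, 2 of 13 rose and 1 fell against cKO-GFP, beside 8.93% and 7.13% of all genes, 3 rose against NC-GFP, beside 8.23%, and 0 passed in cKO-GFP against NC-GFP. Prkar1b, a regulatory subunit of protein kinase A, rose by 2.25 over cKO-GFP (adjusted p = 0.00263) and by 2.92 over NC-GFP (adjusted p = 8.38e-04). The CREB family gene Atf1 fell by 0.84 against cKO-GFP (adjusted p = 0.0111), and Prkar2b, another regulatory subunit, rose by 2.19 over NC-GFP (adjusted p = 0.00176).

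In the Notch list around Mib1, 2 of 18 genes rose and 3 fell against cKO-GFP, beside 8.93% and 7.13% of all genes, and 0 passed in the other comparisons by edgeR. Rbpj, the DNA-binding partner of Notch, fell by 0.73 (adjusted p = 0.0217) and the target gene Hey2 rose by 1.15 (adjusted p = 0.0243). Of 14 deubiquitinases around Usp15, 1 was called in each comparison of cKO-mNLS, beside 16.1% of all genes against cKO-GFP and 11.5% against NC-GFP. This was Uchl1, which is abundant in neurons, rising by 2.32 over cKO-GFP (adjusted p = 0.00188) and by 2.53 over NC-GFP (adjusted p = 9.65e-04). The autophagosome list around Tecpr1 had 1 of 16 higher and 2 lower against cKO-GFP, beside 8.93% and 7.13% of all genes, with the fusion SNARE gene Vamp8 at -0.84 (adjusted p = 0.0134) and Atg5, needed for LC3 conjugation, at -0.67 (adjusted p = 0.0337). Against NC-GFP 2 were higher, beside 8.23%, the LC3 family genes Map1lc3a (0.76, adjusted p = 0.0186) and Gabarapl1 (0.76, adjusted p = 0.0317).

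For the mitochondrial outer membrane list around Synj2bp, 1 of 17 fell against cKO-GFP, beside 7.13% of all genes. This was Rrbp1, an endoplasmic reticulum protein gene (-0.63, adjusted p = 0.0397). Against NC-GFP 2 of 17 rose, beside 8.23%, the channel gene Vdac1 (0.50, adjusted p = 0.0329) and the fusion gene Mfn2 (0.50, adjusted p = 0.0341). For the Adnp2 list of chromatin genes, 1 of 9 passed, beside 16.1% of all genes. This was Cbx5, encoding heterochromatin protein HP1 alpha, which rose by 0.54 against cKO-GFP (adjusted p = 0.0232). In the Notch, deubiquitinase, autophagosome, mitochondrial and chromatin lists 0 genes passed in cKO-GFP against NC-GFP by edgeR. The counts of the nonsense-mediated decay, deubiquitinase, autophagosome, mitochondrial and chromatin lists are near or under the shares over all genes. They are no result about those lists. The counts of the CREB and Notch lists rest on few called genes and carry no test of those lists.

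**Figure D5:**
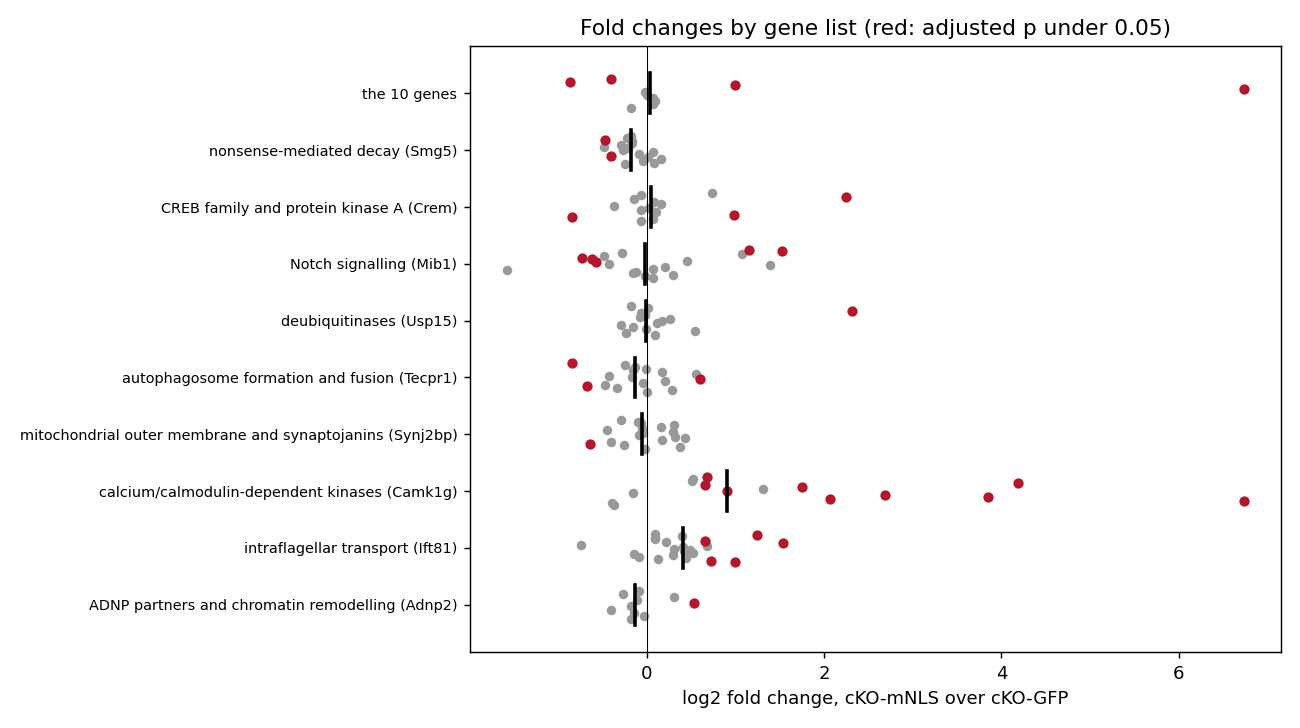
Log2 fold changes of cKO-mNLS over cKO-GFP from edgeR for the 10 genes and for each of these lists by role, including its own member of the 10, with 1 point per gene, red for adjusted p under 0.05 and a bar at the list's median. The kinase list around Camk1g, with a median of 0.91 when Camk1g is included, and the intraflagellar transport list, at 0.41, lie to the right, and the red points of the 10 genes lie on both sides of 0.

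For the 4 called genes, the 2 genes with the most similar log2 CPM pattern over the 10 libraries were found among genes with a mean of at least 1 CPM, as the smallest root mean square difference after centring. For Spata13 these were Morc3, at 68.8 CPM in cKO-mNLS, 124 CPM in cKO-GFP and 113 CPM in NC-GFP (difference 0.0890), and Ptpn1 (0.0941). For Smg5 they were Trim26, at 53.6 CPM in cKO-mNLS, 68.3 CPM in cKO-GFP and 67.2 CPM in NC-GFP (0.0650), and Med7 (0.0819). For Ift81 they were Coro2b, at 65.0 CPM in cKO-mNLS, 33.9 CPM in cKO-GFP and 42.4 CPM in NC-GFP (0.159), and Fzd3 (0.168). For Camk1g they were Gm43829 (0.193) and Sez6l, at 48.5 CPM in cKO-mNLS, 9.64 CPM in cKO-GFP and 9.72 CPM in NC-GFP (0.234). Camk1g had the largest differences of the 4. The measure is not scaled to a gene's range, and Camk1g rests on few counts, so this ranking is no trait of the gene.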

How the data were processed

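RNA-seq libraries were made from 1 ng of total RNA with a stranded SMART-Seq kit, per the labels' protocols. The deposited table gives an estimated count, not normalized, and a TPM value, scaled for transcript length and library total, for each of 55487 genes and 10 libraries, per the file headers. The software DRAGEN and the build GRCm38/mm10 are listed, per the submitters' processing notes. The sources used here do not give its version, the annotation, how reads were counted or whether strand was used. Symbols, identifiers, coordinates and listed lengths come from the deposited table.

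Estimated counts were rounded, since 5.84% of the deposited values were not whole. The group-wise filter of edgeR left 20379 genes holding at least 99.8% of each library's counts. After TMM scaling, all 3 groups entered 1 robust quasi-likelihood fit (edgeR 4.0.16 in R 4.3.3; 7 residual degrees of freedom). P-values of its F test were adjusted over all tested genes by the Benjamini-Hochberg method, and genes under 0.05 were called. The common biological coefficient of variation was 0.406. Libraries are pools of animals, so p-values measure the spread between pools, which differed by more than counting noise within every group. The TPM values of the authors were tested with limma 3.58.1 on log2(TPM + 0.5), and implied lengths with limma on the log2 scale for genes with at least 10 counts and a TPM above 0 in every library. Other settings were the size factors of DESeq2, the DESeq2 1.42.0 Wald test, limma-voom with quality weights, no filter, a filter at 1 CPM in 6 libraries, fits of the 2 compared groups, a block for the replicate number, and leaving out each library. The steps were tested on simulated data.

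The 10 genes, the lists by role and the marker lists were chosen with earlier results of these data known, and the TPM and length analyses after seeing the data. All 10 genes were named in each comparison, and from each list up to 2 called genes of smallest p. The list around Spata13 is not reported here. Transcript sequences are from GENCODE M21 and promoter windows from RefSeq.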

Additional observations from a re-analysis of the deposited data

Results flagged for a closer look

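Camk1g in cKO-mNLS replicate 2, at 3.70 CPM, lay far from the other 3 cKO-mNLS libraries at 1.18 to 1.33 CPM, with a gap of 0.941 of the group's range, above the 95% critical value of Dixon's test for 4 values. It was the only such value among 28 quantities looked at in cKO-mNLS, and chance alone gives about 1 in 20. The same library had the highest neuronal marker sum of all 10 (2079.9 CPM), while the neuronal sums of the other 3 spread over 667 to 1398 CPM. Without it Camk1g was not called against NC-GFP (3.57, edgeR adjusted p = 0.105).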

How the results depend on the processing

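Other size factors changed no count of called genes among the 10, and no call reversed under any setting. For cKO-mNLS against cKO-GFP, 4 of the 10 genes became 2 with the stricter filter, which removes Camk1g, in a fit of the 2 groups and on TPM, and 2 to 4 with a library left out. The lowest number, 2, came without cKO-GFP replicate 1 and without cKO-GFP replicate 3. Their median moved to 0.18 on TPM and to between -0.060 and 0.17 with a library left out, and all genes called went to 1873 on TPM and to 1178 to 3629. The median of all genes on TPM was itself shifted by 0.15. For cKO-mNLS against NC-GFP, 2 of the 10 became 1 with the stricter filter, 0 on TPM and 0 to 3 with a library left out, where 0 came without NC-GFP replicate 2. All genes called were 3565 with DESeq2, 1558 on TPM and 1217 to 2603 with a library left out, and DESeq2 called Smg5 (-0.32, adjusted p = 0.0286). For cKO-GFP against NC-GFP, all genes called were 1391 with DESeq2, 1512 with voom, 754 in a fit of the 2 groups, 147 on TPM and 61 to 755 with a library left out. On TPM the median of the 10 was -0.12 in that comparison, beside -0.066 over all genes. Smg5 against cKO-GFP did not pass without the filter (adjusted p = 0.209), with the stricter one (0.0531) or in a fit of the 2 groups (0.0762). The causes were not tested.

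With the replicate number as a block, 3 of the 10 were called against cKO-GFP (Smg5 lost, adjusted p = 0.102), 1 against NC-GFP (Camk1g lost, adjusted p = 0.0930), and 176 of all genes for cKO-GFP against NC-GFP. Deviations of same-numbered libraries correlated across genes at -0.211 to 0.0802 over 9 pairs. Differently numbered libraries of different groups gave -0.207 to 0.233. With ranges this alike, the correlations cannot tell whether the numbers mark a shared day or batch, which the sources used here do not state. Of the genes' fold changes under all settings, 470 kept direction and call, 27 lost a call, 2 gained one and 37 changed sign with no call in either fit. Of the implied lengths 324 were alike and 36 changed.

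With 3 to 4 pools a group, differences in low-count genes such as Camk1g rest on few reads, and gene totals cannot show exon inclusion.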
